A study of Macaca mulatta with 4 samples.

Results

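Brain endothelial cells were examined in single-nucleus RNA-seq of the fetal rhesus macaque cerebellum, where they line the vessels of the growing tissue. A barcode (1 droplet, taken as 1 nucleus) was counted as endothelial when it had at least 500 detected genes, a unique molecular identifier (UMI, 1 counted RNA molecule) from at least 3 of the 6 genes FLT1, PECAM1, MECOM, TEK, EGFL7 and CLDN5, and 0 UMIs of COL1A2, a fibroblast collagen. The nuclei were thus chosen by measured UMIs, and by this rule 195 of 32587 barcodes were endothelial. The study compared fetuses whose amniotic cavity had received 1 mg of LPS, a bacterial wall component used to model chorioamnionitis, with controls that had no intervention, and sequenced 1 library from the frozen left hemisphere and vermis of each of 4 fetuses. The Control group was 1 female and 1 male fetus, both at 130 days of gestation, and the LPS group was 1 female at 131 days and 1 male at 133 days, delivered 5 days after the injection. Gestational age therefore goes with the group and cannot be told apart from LPS, and each combination of group and sex is 1 animal. Below, values of the 4 libraries are given in the order Control female, Control male, LPS female and LPS male, and levels are in CPM, the UMIs of a gene per 1000000 UMIs of the endothelial nuclei of a library summed together.

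Endothelial cells of the brain form the blood-brain barrier. They are joined by tight junctions, they carry little vesicular traffic, and they move glucose, amino acids, iron and hormones across with dedicated transporters while efflux pumps return lipophilic molecules to the blood. The barrier is induced during development by Wnt ligands of the neural tissue acting through beta-catenin and LEF1/TCF factors in the endothelium, while VEGF drives vessel growth through the receptors KDR and FLT1, and pericytes (mural cells) wrap the capillaries. In inflamed vessels, endothelial cells can display adhesion molecules such as E-selectin, ICAM1 and VCAM1, which capture leukocytes.

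The endothelial nuclei numbered 63, 65, 45 and 22, which was 0.681, 0.754, 0.652 and 0.282% of the barcodes of each library. The LPS male library stood apart with the fewest endothelial nuclei and the lowest share, and its exact (Clopper-Pearson) 95% interval of 0.177 to 0.426% did not overlap those of the other 3 libraries, which together spanned 0.476 to 0.960%. These intervals cover counting error only. The endothelial nuclei had a median of 5719, 2575, 5354 and 3083 UMIs against 4501, 1879, 4057 and 2306 in all other barcodes, so they were deeper than the rest in each library, and the female libraries were deeper than the male ones. Summed over nuclei, the libraries gave 446766, 199453, 337988 and 90880 endothelial UMIs out of library totals of 61665690, 34282015, 41642819 and 56935290, and the LPS male sum was thus the least precise. Between 16 and 22 barcodes were shared by any pair of libraries, and 1 of them was an endothelial nucleus. Scrublet, a doublet caller run on each library, called 8 of 63, 7 of 65, 1 of 45 and 0 of 22 endothelial nuclei doublets. Among all barcodes it called 5.46, 7.39, 5.33 and 5.64%. The called share of endothelial nuclei was thus above that of all barcodes in both Control libraries and below it in both LPS libraries, which was not tested.

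**Figure D1:**
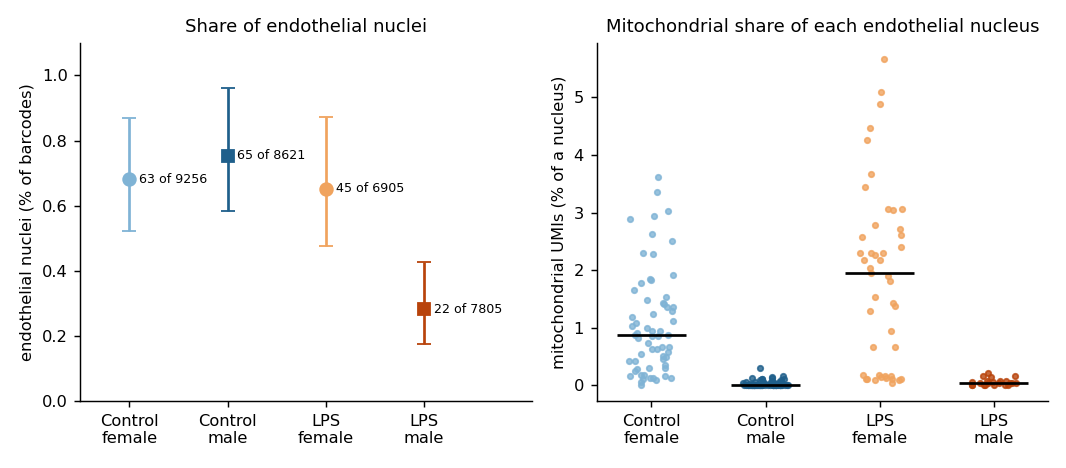
Left, the share of endothelial nuclei among barcodes with at least 500 genes (%, points, with exact 95% binomial intervals) in each library. Right, the mitochondrial share of UMIs (%) of each endothelial nucleus (points, spread sideways at random) with the median of the library as a line, which was 0.872, 0, 1.95 and 0.0359%.

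The label was checked with 12 endothelial genes that the rule did not use, namely CDH5, ERG, FLI1, VWF, PTPRB, EMCN, ABCB1, SLC2A1, TIE1, KDR, ESAM and ROBO4. At least 3 of these were detected in 187 of 195 endothelial nuclei (95.9%) and in 209 of 32392 other barcodes (0.645%), with medians of 8 and 0 genes detected. CDH5, the adherens junction protein VE-cadherin, reached 154, 216, 317 and 154 CPM in endothelial nuclei against 2.44, 4.47, 2.62 and 2.14 CPM in other barcodes. ERG, an ETS transcription factor of endothelial identity, reached 933, 732, 1089 and 704 CPM against 5.12, 2.96, 3.802 and 2.83 CPM. The least separated of the 12, PTPRB (VE-PTP, a phosphatase of the TEK receptor), stood at 428, 541, 500.02 and 396 CPM against 28.9, 31.0, 27.7 and 47.6 CPM. In each library and for each of the 12 genes the endothelial level lay above that of the other barcodes, which is a description and not a test, since the nuclei were chosen in the same contrast. The droplets with under 100 UMIs, which hold free RNA, had 26.7, 57.6, 32.1 and 22.3 CPM of FLT1 against 10.2, 13.2, 7.74 and 9.81 CPM in the other barcodes, from which barcodes rich in FLT1 had been removed by the rule.

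**Figure D2:**
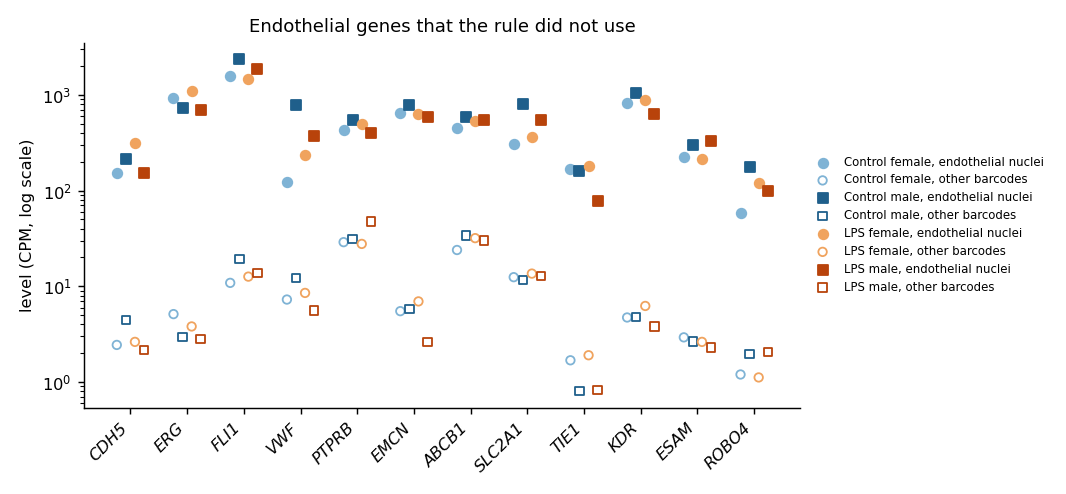
Levels (CPM, log scale) of 12 endothelial genes that did not choose the nuclei, in the summed endothelial nuclei (filled) and in the summed other barcodes (open) of each library (blue, Control; orange, LPS; circles, female; squares, male). For each gene the 4 filled symbols lie above the 4 open ones.

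The values that chose the nuclei are given as a description. FLT1, a VEGF receptor, stood at 2439.8, 3785, 2976 and 1915 CPM and had a UMI in 96.4% of endothelial nuclei. MECOM, a zinc finger factor, stood at 2549, 1519, 3343 and 1133 CPM, EGFL7, a protein endothelial cells secrete into their matrix, at 790.1, 1900.2, 1213 and 836 CPM, PECAM1 (CD31) at 559.6, 757, 692 and 649 CPM and TEK, the angiopoietin receptor, at 577, 411, 414 and 275 CPM. CLDN5, the chief claudin of brain endothelium, was close to undetected, with 3, 0, 3 and 1 UMIs, and so added little to the rule. Of the barcodes without COL1A2, 25 held exactly 3 of the 6 genes and were just inside the threshold, and 18 of them had at least 3 of the other 12 endothelial genes. Just outside, 122 barcodes held exactly 2, and 11 of those had at least 3 of the 12. A further 11 barcodes met the marker count but held COL1A2 and were left out, and all 11 had at least 3 of the 12.

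The genes that separated endothelial nuclei most from the other barcodes were ranked by the log2 ratio of CPM + 1, averaged over libraries, among 2307 genes with at least 10 counts in the endothelial nuclei of every library. Over all 5515 genes with enough counts for testing, the median ratio was 0.13, 13.9% exceeded a log2 ratio of 1 in each of the 4 libraries, and 5.08% fell below -1 in each. These shares, and the counts over lists set beside them below, describe the contrast that chose the nuclei and are not tests, and list genes with too few counts are left out of them. Beside FLT1, EGFL7, MECOM and PECAM1, the first 20 held a gene annotated as SLCO1B1, an organic anion transporter with close paralogs, at a ratio of 7.55 and in 73.8% of endothelial nuclei against 0.417% of the others. They held the adhesion G protein-coupled receptors ADGRF5 and ADGRL4 (ratios of 7.33 and 7.27), the ETS factors ERG, ETS1 and FLI1 (6.91 to 7.53), the zinc finger gene ZNF366 (7.17) and LEF1 (6.79). They also held KDR (7.16), the sialomucin gene EMCN (6.79), PIK3R6, a regulatory subunit of PI3-kinase gamma (6.95), TNFSF10, which encodes the death ligand TRAIL (6.72), IGFBP7 (6.55), DIPK2B (7.01), VWA2 (6.90) and the cationic amino acid transporter SLC7A1 (6.65). SLC7A1 stood at 3469, 4643, 2932 and 3598 CPM and was found in 95.9% of endothelial nuclei. TNFSF10 stood at 159, 135, 166 and 209 CPM against 0.709, 0.402, 0.721 and 0.502 CPM in the other barcodes.

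The barrier transporters were high in endothelial nuclei of all libraries. Of the 22 transporter genes measured, 19 had enough counts, and 13 of these exceeded the other barcodes by a log2 ratio over 1 in each library, with a median ratio of 3.94. SLC2A1, the glucose transporter GLUT1, was found at 307, 807, 367 and 550.2 CPM and was higher in both male than in both female libraries. ABCB1 (P-glycoprotein) and ABCG2, which are efflux pumps, were found at 449.9, 587, 529.6 and 550.2 CPM and at 436, 276, 399 and 352 CPM, and ABCB1 varied little between animals. The transferrin receptor TFRC, which takes up iron, was found at 557, 1173, 784 and 616 CPM, and the zinc transporter SLC39A10 at 1289, 1068, 1621 and 561 CPM. SLCO1A2, a carrier of organic anions, and SLC38A5, a glutamine transporter, had ratios of 6.28 and 5.45. SLC16A1, the lactate and ketone body carrier MCT1, which is prominent in the barrier of young brains, had 275, 341, 385 and 121 CPM and was lowest in the LPS male library. MFSD2A, the lysolipid transporter that marks mature barrier capillaries, was near the limit of detection with 1, 7, 0 and 3 UMIs, and SLC22A8, an organic anion transporter, had 0 UMIs in 1075087 endothelial UMIs, which allows up to 2.79 CPM (3 counts). LRP1, an endocytic receptor, was lower than in the other barcodes, at a ratio of -1.75. SLC7A5 and ATP10A were not analysed here.

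Junction genes were also high. 9 of 11 tested genes (16 measured) of the tight junction list exceeded a log2 ratio of 1 in each library, and the list had a median of 3.13. OCLN (occludin) was found at 188, 115, 246 and 66.0 CPM, ESAM, an adhesion molecule, at 224, 301, 213 and 330.1 CPM, the junction adaptor CGNL1 at 423, 451, 432 and 374 CPM and TJP1 (ZO-1) at 1412, 707, 1305 and 1166 CPM. LSR, which seals tricellular junctions, had a ratio of 3.44, whereas JAM3 had -0.74. Of the caveolar and permeability list, 3 of 4 tested genes (7 measured) exceeded a log2 ratio of 1 in each library (median 3.82). PLVAP, the diaphragm protein of fenestrated vessels, had 2, 7, 1 and 1 UMIs, CAV1 had 25, 6, 17 and 0 UMIs, and the caveolar coat gene CAVIN1 was found at 137, 70.2, 198 and 55.0 CPM, higher in both female than in both male libraries.

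Of the Wnt/beta-catenin list, 8 of 12 tested genes (15 measured) exceeded a log2 ratio of 1 in each library (median 2.96). LEF1, the nuclear partner of beta-catenin, stood at 1383, 1168, 1373 and 814 CPM and was found in 85.1% of endothelial nuclei against 1.90% of other barcodes. FOXF2, a factor needed for the barrier, stood at 264, 216, 355 and 275 CPM, and NKD1, a feedback target of the pathway, at 163, 321, 198 and 352 CPM. The receptors FZD4 and FZD6 had ratios of 3.44 and 3.94, ADGRA2 (GPR124), a co-activator for WNT7 ligands, had 3.85, and its partner RECK had 0.04. TCF7L1 stood at 279.8, 341, 234 and 231 CPM, with a ratio of 0.66, and TNFRSF19 at 217, 356, 97.6 and 198 CPM, with 2.17, while the co-receptor LRP6 and the ligase ZNRF3, which removes Frizzled receptors, had -0.50 and -0.36. The ratios within the list thus ranged widely. APCDD1, AXIN2, FOXQ1 and SOX17 were not analysed here.

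All 10 tested genes (13 measured) of the VEGF and angiopoietin list exceeded a log2 ratio of 1 in each library (median 5.44). The list holds FLT1 and TEK, which helped choose the nuclei, and VEGFA, ANGPT1 and PGF had too few counts for testing. Among receptors, KDR stood at 828, 1048, 876 and 627 CPM, NRP1 at 1307, 802, 1494 and 638 CPM, FLT4 at 71.6, 125, 74.0 and 88.0 CPM and TIE1 at 170.1, 160.4, 180.5 and 77.0 CPM. Each of KDR, NRP1 and TIE1 was lowest in the LPS male library. Among ligands, ANGPT2, which endothelial cells release to antagonise TEK, had 71.6, 165, 133 and 77.0 CPM, and VEGFC had 132, 150.4, 183 and 99.0 CPM, whereas VEGFA and ANGPT1, which come from neighbouring cells, had ratios of -1.24 and -2.94. Of the 8 tested tip cell genes (13 measured), 8 exceeded a log2 ratio of 1 in each library. DLL4 stood at 73.9, 110.3, 115 and 33.0 CPM, CD34 at 125, 70.2, 76.9 and 55.0 CPM and ADM at 58.2, 45.1, 97.6 and 33.0 CPM, while ESM1 had 0 UMIs. Of the Notch list, 6 of 7 tested genes (10 measured) exceeded that ratio, and ligand, receptor and target genes were all present. JAG1 stood at 302, 261, 287 and 286 CPM, NOTCH4 at 103, 160.4, 79.9 and 44.0 CPM, NOTCH1 at 157, 346, 157 and 231 CPM and the target HES1 at 291, 557, 577 and 297 CPM.

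All 17 tested endothelial transcription factors (21 measured) exceeded a log2 ratio of 1 in each library, with ratios from 1.91 to 7.90 (median 5.72). The list includes MECOM, which helped choose the nuclei. FLI1 stood at 1589, 2361, 1462 and 1859.6 CPM, ETS1 at 1211, 872, 1148 and 748 CPM, EPAS1 (HIF-2 alpha) at 611, 1113, 929 and 836 CPM and FOXP1 at 2169, 2226, 2210.1 and 1574 CPM, which was also widely detected elsewhere (61.3% of other barcodes). KLF4, a factor that rises under blood flow, had 64.9, 211, 68.0 and 132 CPM, and KLF2, its close relative, had only 7, 6, 5 and 2 UMIs. Of the basement membrane and integrin list, 15 of 17 tested genes (21 measured) exceeded the ratio, among them the collagen IV chains COL4A1 (739, 1128, 869.9 and 605 CPM) and COL4A2 (1153, 1464, 1376 and 935 CPM), the laminin chain LAMA4 (1509, 1454, 2062 and 1419 CPM) and perlecan, HSPG2 (235, 637, 322 and 264 CPM). SPARC, a matrix-binding glycoprotein, was at 423, 95.3, 811 and 55.0 CPM and so was several-fold higher in both female libraries than in both male ones. Of the BMP and TGF-beta list, 9 of 14 tested genes (16 measured) exceeded it. ENG (endoglin), the co-receptor for BMP9, stood at 345, 2101, 556 and 539 CPM, and SMAD6, an inhibitor the pathway induces, at 177, 923, 210.1 and 495 CPM, and both were highest in the Control male library. In the shear and guidance list 9 of 13 tested genes (17 measured) exceeded it, with NOS3 (endothelial nitric oxide synthase) at 42.5, 30.1, 38.5 and 55.0 CPM and PLXND1, the semaphorin receptor, at 137, 231, 210.1 and 165 CPM, while the guidance receptor ROBO1 had a ratio of -2.29.

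**Figure D3:**
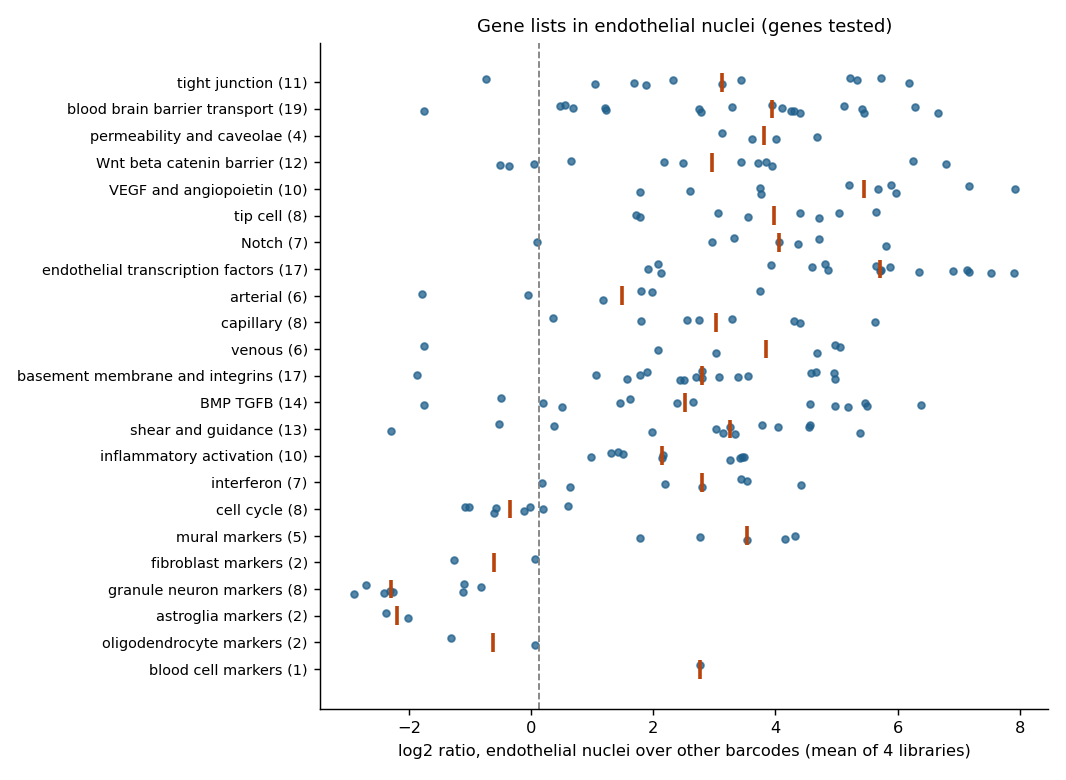
Log2 ratio of CPM + 1 between endothelial nuclei and other barcodes, averaged over 4 libraries, for each tested gene (points) of each list, with the number of tested genes in parentheses, the list median (orange line) and the median of all tested genes, 0.13 (dashed). The endothelial lists lie to the right, with medians of 5.44 for VEGF and angiopoietin genes and 5.72 for transcription factors, and granule neuron markers lie to the left at -2.29. The VEGF and angiopoietin list includes the rule markers FLT1 and TEK, and the transcription factor list includes MECOM.

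Genes of the arterial, capillary and venous segments were counted next, and several defining arterial and venous genes were sparse. GJA4, GJA5, SEMA3G and BMX, which mark arterial endothelium, had UMIs in 10, 4, 2 and 1 of 195 nuclei. ACKR1, SELE and PLVAP, which mark venous endothelium, had UMIs in 5, 9 and 8 nuclei, and SELP and APLNR in 0. VWF, which is strongest in veins, was found in 56.4% of nuclei, at 123, 782, 234 and 374 CPM, and NR2F2, a factor of venous identity, in 46 nuclei. Of the capillary list, 7 of 8 tested genes (10 measured) exceeded a log2 ratio of 1 in each library, against 5 of 6 tested genes (14 measured) of the venous and 1 of 6 tested genes (15 measured) of the arterial list. The arterial gene DKK2 had 0, 1, 46 and 1 UMIs, of which 39 of the LPS female library came from 1 nucleus. At least 3 genes of the capillary list were detected in 175 nuclei (89.7%), as against 9.25% of other barcodes. For the venous list this held for 80 nuclei (41.0%, against 1.97%) and for the arterial list for 65 (33.3%, against 7.002%), and the lists differ in length and in how widely their genes are expressed.

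Some endothelial nuclei also held RNA of pericytes. At least 3 of 10 measured mural markers were detected in 27 of 195 endothelial nuclei (13.8%), against 0.265% of other barcodes, and in 14, 3, 6 and 4 nuclei of the 4 libraries. In these 27 nuclei the potassium channel subunit ABCC9 reached 603 CPM against 1.17 CPM in the other endothelial nuclei, PDGFRB, the pericyte receptor for PDGF, 359 against 8.16 CPM, and RGS5 396 against 2.33 CPM. These 3 genes are among the markers that chose the 27 nuclei, so their contrast follows from the choice and is only a description. Of the endothelial genes outside the rule, ESAM stood at 249 against 242 CPM in the same nuclei, while VWF (147 against 340.4 CPM), EMCN (446 against 713 CPM), FLI1 (1316 against 1816 CPM) and ERG (736 against 973 CPM) were lower there, as were the others of the 12. They also held EDNRA (465 against 4.66 CPM), HTR1F (2066 against 81.6 CPM) and GRM8 (1348 against 78.1 CPM), 3 receptor genes named after their values were seen. Their median was 6008 UMIs, against 4186 in the other endothelial nuclei, and whether they were 2 cells in 1 droplet was not tested. Of the other lineages, at least 3 microglial or macrophage markers were found in 1 endothelial nucleus (0.513%, against 0.648% of other barcodes). At least 3 blood cell markers were found in 0 (against 0.0401%), oligodendrocyte markers in 4 (2.05%, against 2.81%) and astroglial markers in 7 (3.59%, against 9.10%). Fibroblast markers were found in 17 (8.72%, against 5.43%), in 8, 0, 3 and 6 nuclei of the 4 libraries. That was 12.7, 0, 6.67 and 27.3% of endothelial nuclei against 6.24, 4.45, 8.16 and 3.12% of other barcodes. They were thus more frequent than in the other barcodes in the Control female and LPS male libraries only. CX3CR1, LUM and CD3E had 0 UMIs. At least 3 granule neuron markers were detected in 124 endothelial nuclei (63.6%, against 91.3%). Granule neuron markers were lower than in the other barcodes but present, with summed levels of 1806, 2512, 1529.6 and 4754 CPM against 9299, 8716, 8813 and 9683 CPM, and the LPS male library had the highest endothelial sum.

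Several cell cycle genes together were detected in a minority of nuclei. At least 3 of 17 cell cycle genes were detected in 33 endothelial nuclei (16.9%), in 15, 6, 10 and 2 nuclei of the 4 libraries, and in 10.7% of other barcodes. Those nuclei had a median of 10114 UMIs against 3873 in the rest, and each of the 12 endothelial genes outside the rule but TIE1 stood lower in them, among these ERG at 686 against 1042 CPM and VWF at 188 against 356 CPM. The part of depth, or of 2 cells in 1 droplet, in this count was not tested. MKI67, a proliferation antigen, was detected in 13 nuclei (7 of 63, 0 of 65, 5 of 45 and 1 of 22), and TOP2A, the topoisomerase of dividing cells, in 22 (7 of 63, 4 of 65, 8 of 45 and 3 of 22). In the other barcodes they were found in 6.56% and 8.65%. None of the 8 tested cell cycle genes exceeded a log2 ratio of 1 in each library.

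The libraries differed in the mitochondrial share of their endothelial nuclei, which split by sex and not by group. Of all endothelial UMIs, 1.20, 0.0366, 2.12 and 0.0594% were mitochondrial, against 0.165, 0.0177, 0.145 and 0.0220% in the other barcodes. With a limit of 0.5%, chosen after the values were seen, 43 endothelial nuclei of the Control female and 32 of the LPS female library lay above it (68.3 and 71.1%), compared with 5.65 and 3.79% of the other barcodes, and 0 endothelial nuclei of either male library. In the Control female library, SPARC stood at 544 CPM in the nuclei above the limit and 112 CPM in those at or below it, and IGFBP7 at 1302 and 1032 CPM. In the LPS female library, SPARC stood at 979 and 64.2 CPM, and IGFBP7 at 1727 and 770.2 CPM. MGP and SLC7A1 did not split alike in the 2 libraries, with MGP at 99.4 against 32.0 CPM in the Control female and 170.5 against 209 CPM in the LPS female library, and SLC7A1 at 3363 against 3744 CPM and 3145 against 1989.8 CPM. The neuronal gene CADPS2 was lower in the nuclei above the limit, at 441 against 656 CPM and at 355 against 690.0 CPM.

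The effect of LPS was examined first on the share of endothelial nuclei. The share was 0.717 ± 0.0519% in Control and 0.467 ± 0.262% in LPS (mean ± SD, n = 2 libraries each), and the 2 groups did not overlap (two-sided exact permutation test, p = 0.333, the smallest that 2 against 2 libraries allow). The difference rested on the LPS male library, and without it the log2 ratio of the shares moved from -0.62 to -0.14. Between females the shares were 0.681 and 0.652%, and between males 0.754 and 0.282%. After each barcode was thinned to 1000 UMIs, which left out 389, 780, 165 and 1788 shallower barcodes, the shares became 0.530, 0.536, 0.534 and 0.266%, so that the LPS female share lay between the 2 Control shares (exact permutation p = 0.667). A share counts nuclei recovered by the isolation, and fewer endothelial cells in the tissue and lower recovery of their nuclei cannot be told apart.

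The genes were then compared between LPS and Control on counts summed over the endothelial nuclei of each library, with edgeR's quasi-likelihood test and a call at a Benjamini-Hochberg adjusted p below 0.1 and a log2 fold change beyond 0.25. Of 5515 genes, 0 were called (0%). At an unadjusted p under 0.05 there were 38 genes, and DESeq2 called 0 with 31 at that unadjusted level. The change was also compared with the change in all other barcodes of the same animals, which asks whether a gene moved in endothelium beyond the rest of the tissue. Here too 0 genes were called (0%), with 89 at an unadjusted p under 0.05. Both LPS libraries lay above both Control libraries for 8% of the tested genes, and below for 14.2%. Since no gene was called, the genes named next are those with the smallest unadjusted p among the genes whose groups did not overlap, and none of them passed the threshold. Leaving out the LPS female library, which leaves the LPS male alone, called 86 genes, leaving out the LPS male called 21, and leaving out the Control female or Control male called 36 or 11. Relative to the other barcodes, leaving out the LPS female called 23 and leaving out the LPS male 6 genes.

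GPC5, which encodes glypican 5, a heparan sulfate proteoglycan of the cell surface, was lower in both LPS libraries. It stood at 1419, 1103, 388 and 99.0 CPM, from 634, 220, 131 and 9 UMIs, and was detected in 52 of 63, 38 of 65, 23 of 45 and 3 of 22 nuclei. Both LPS libraries lay below both Control libraries, and the LPS male library, which had the smallest UMI sum, was the lowest. In the other barcodes of the same libraries GPC5 stood at 33.0, 19.1, 38.5 and 27.5 CPM, and the groups overlapped there. The log2 fold change was -2.22 (SE 0.69, adjusted p = 0.999), and relative to the other barcodes it was -2.81 (SE 0.53, adjusted p = 1.00). By the first comparison GPC5 was not called in any setting that kept all 4 libraries, and without the LPS female library its log2 fold change was -3.72. Relative to the other barcodes, the only such setting that called GPC5 was that without the filter on low counts (log2 fold change -2.84, adjusted p = 0.000147, same edgeR test). With 2 or more markers, for example, it was not called (log2 fold change -2.62, adjusted p = 0.124, same test). In that comparison its log2 fold change was -2.22 without the LPS male and -3.85 without the LPS female library. It was -3.13 without the Control female and -2.60 without the Control male library. Its direction there held in all 13 alternative settings (-3.85 to -2.22). The highest count in 1 nucleus was 53, 30, 38 and 5 UMIs.

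Further genes were lower in both LPS libraries, most of them from few UMIs. ADARB2, an editing enzyme homologue of neurons, stood at 295, 541, 133 and 132 CPM, with a log2 fold change of -1.56 (SE 0.46, adjusted p = 0.999). With 2 or more markers as the rule for nuclei, the ADARB2 log2 fold change turned to 1.04. ADAMTS16, a secreted metalloprotease, stood at 186, 120.3, 41.4 and 44.0 CPM, from 83, 24, 14 and 4 UMIs, of which 33 in the Control female library came from 1 nucleus. NLRC5, the transactivator of MHC class I genes, stood at 38.1, 100.3, 8.88 and 0 CPM, and was detected in 10 of 63, 14 of 65, 2 of 45 and 0 of 22 nuclei. The matrix genes COL11A1 and FBN2 had 21, 15, 2 and 1 and 22, 10, 2 and 0 UMIs, the transcription factor gene PAX3 had 38, 11, 5 and 1 and the glutamate receptor gene GRIA3 had 32, 22, 1 and 3 UMIs, so that each rested on at most 5 UMIs in either LPS library. GRIA3 was called without the LPS male library (log2 fold change -4.65, adjusted p = 0.0155), and with 2 or more markers as the rule its log2 fold change turned to 0.80. Relative to the other barcodes, ZW10, a kinetochore gene, RHOBTB3 and PLCL1 came next, with log2 fold changes of -2.37, -2.70 and -1.52 (adjusted edgeR p of 1.00 for each).

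Among genes higher in both LPS libraries, 1 nucleus held a large part of the UMIs of several. TNS3, which encodes a focal adhesion adaptor, stood at 71.6, 40.1, 115 and 594 CPM, and 37 of the 54 LPS male UMIs came from 1 nucleus. The neuronal genes FGF12 and SYN2 stood at 85.1, 105, 157 and 605 CPM and 44.8, 50.1, 79.9 and 407 CPM, with 21 of 55 and 20 of 37 LPS male UMIs in 1 nucleus, and for PCSK5, a proprotein convertase, 56 of 79 LPS female UMIs were in 1 nucleus. Without the LPS female library, TNS3, FGF12 and SYN2 were called with log2 fold changes of 3.28, 2.63 and 3.05, and TNS3 also without the Control female library (log2 fold change 3.13). HDAC9, a class II histone deacetylase, was spread over 11 of 63, 3 of 65, 9 of 45 and 6 of 22 nuclei, at 42.5, 20.1, 94.7 and 110.0 CPM, and its log2 fold change was 1.66 (SE 0.58, adjusted p = 0.999). EGR1, an immediate early transcription factor, was detected in 5 of 63, 3 of 65, 9 of 45 and 6 of 22 nuclei, at 17.9, 15, 38.5 and 121 CPM, with a log2 fold change of 2.11 (SE 0.81, adjusted p = 0.999). RASGRF2 and SPECC1 stood at 29.1, 25.1, 65.1 and 99.0 CPM and 80.6, 50.1, 118 and 242 CPM. Relative to the other barcodes, PREPL, ADAM9, PPARA and XPO4 had log2 fold changes of 1.39, 1.22, 1.56 and 1.13, none called, and NLGN4Y, a gene of the Y chromosome, had 0, 14, 1 and 28 UMIs. The granule neuron sum was likewise highest in the LPS male endothelial nuclei, and its part in these values was not tested.

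**Figure D4:**
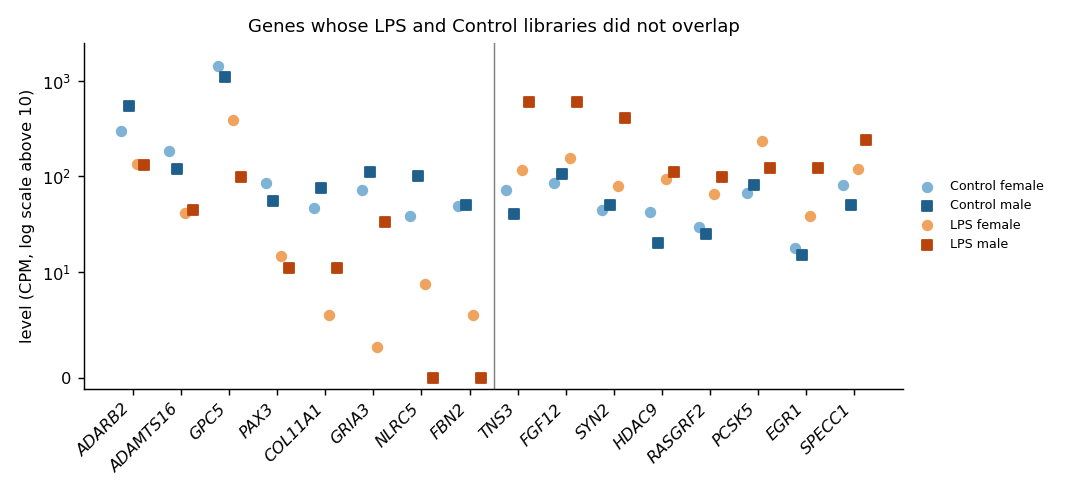
Levels (CPM, linear below 10 and logarithmic above) in the summed endothelial nuclei of each library (blue, Control; orange, LPS; circles, female; squares, male) of 8 genes lower (left of the line) and 8 higher in both LPS libraries, ordered by unadjusted p. The groups do not overlap for any of the 16 because they were chosen so, and none passed the threshold.

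The gene lists were followed for LPS, and no gene of any list was called. Over all tested genes the median log2 fold change was 0.02. The medians of the barrier transporters (-0.21), tight junction genes (0.09), Wnt/beta-catenin genes (-0.07), VEGF and angiopoietin genes (-0.11), transcription factors (-0.14), basement membrane genes (-0.10), BMP and TGF-beta genes (0.01) and Notch genes (-0.06) all lay within 0.25 of zero. For the tip cell, capillary, venous, caveolar, shear and cell cycle lists the medians were -0.15, 0.05, -0.17, -0.11, 0.09 and -0.09, and for the arterial list 0.32. These medians moved with single libraries. Over the fits that leave out 1 library, they ran from -0.36 to 0.11 for transporters, from -0.20 to 0.32 for junction genes, from -0.19 to 0.02 for Wnt/beta-catenin genes, from -0.61 to 0.19 for VEGF and angiopoietin genes, from -0.56 to 0.20 for transcription factors and from -0.48 to 0.08 for basement membrane genes. The ranges were -0.44 to 0.20 for BMP and TGF-beta, -0.29 to 0.27 for Notch, -0.77 to 0.17 for tip cell, -0.51 to 0.37 for capillary, -0.42 to 0.15 for venous, -1.50 to 0.41 for caveolar, -0.15 to 0.30 for shear and guidance, -1.06 to 1.05 for cell cycle and -0.63 to 0.60 for arterial genes, so that the median of each of these lists took both signs, and for most of them the lowest value came without the LPS female library. With 2 or more markers as the rule, the medians of these lists lay between -0.71 and -0.02. Of the tested transporter genes, 0 lay above and 1 below Control in both LPS libraries, against the 8% and 14.2% of all genes. Within Wnt/beta-catenin genes the numbers were 3 (FZD4, LRP6 and FOXF2) and 3 (TCF7L1, TNFRSF19 and RECK) of 12. BMPER, a secreted modulator of BMPs, stood at 31.3, 60.2, 23.7 and 495 CPM, with 33 of 45 LPS male UMIs in 1 nucleus. Of the junction genes, 1 lay above (JAM2, 429.8, 211, 503 and 440.1 CPM) and 1 below.

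Of the inflammatory genes, adhesion molecules, cytokines and TLR4 were sparse in endothelial nuclei of both groups, while 14 measured genes were found in at least 10 nuclei. Of 31 measured genes, 7 had no UMI in any endothelial nucleus (SELP, CCL2, CXCL10, IL6, CSF3, LCN2 and CEBPD), and 17 in all were detected in fewer than 10 nuclei. Of the adhesion molecules, ICAM1 had 1, 0, 1 and 0 UMIs and VCAM1 had 3, 2, 6 and 0. E-selectin, SELE, had 9, 9, 2 and 0 UMIs, and TLR4, the receptor for LPS, had 0, 0, 2 and 0. In the 4 libraries, 3 counts equal 6.71, 15, 8.88 and 33.0 CPM. ICAM1, VCAM1, SELE and TLR4 had too few counts for testing, so their differences between libraries were not tested. Of the 10 genes tested, 0 lay above and 4 (RELB, NFKBIA, IL4R and FKBP5) below both Control libraries in both LPS libraries, against 8% and 14.2% of all tested genes, and the median log2 fold change was -0.50. Within females the median difference of these genes in log2(CPM + 1) was -0.07 and within males -0.99, with 1 library against 1 in each sex and no test, and leaving out 1 library put the median log2 fold change at -0.96 to -0.13. RELB, a subunit of NF-kappa B, stood at 42.5, 85.2, 20.7 and 11 CPM, NFKBIA, its inhibitor and target, at 47.0, 80.2, 44.4 and 11 CPM, and FKBP5, a glucocorticoid target, at 53.7, 80.2, 38.5 and 33.0 CPM. The others overlapped, with STAT3 at 228, 466, 260.4 and 176 CPM, NFKB1 at 157, 145, 151 and 110.0 CPM, IL6ST, the shared receptor of IL-6 cytokines, at 78.3, 145, 104 and 88.0 CPM and OSMR, the oncostatin M receptor, at 44.8, 241, 65.1 and 66.0 CPM.

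In the interferon list, 7 of 20 measured genes were tested, and the median log2 fold change was -0.03 (-0.54 to 0.09 over the fits that leave out 1 library). The Control male library had the most UMIs of IFI44 (7, 18, 8 and 3). It also had the most of IRF1 (1, 12, 0 and 0), PTGS2 (0, 8, 0 and 0) and IL1R1 (5, 15, 2 and 0), which belong to the inflammatory list. MX1 had 3, 8, 3 and 5, ISG15 2, 2, 1 and 1 and OAS1 0 UMIs, while the receptor genes IFNAR1 and IFNAR2 stood at 215, 226, 118 and 165 CPM and 501, 306, 426 and 363 CPM. CXCL8, BIRC3, GBP1, GBP2 and TAP1 were not analysed here.

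**Figure D5:**
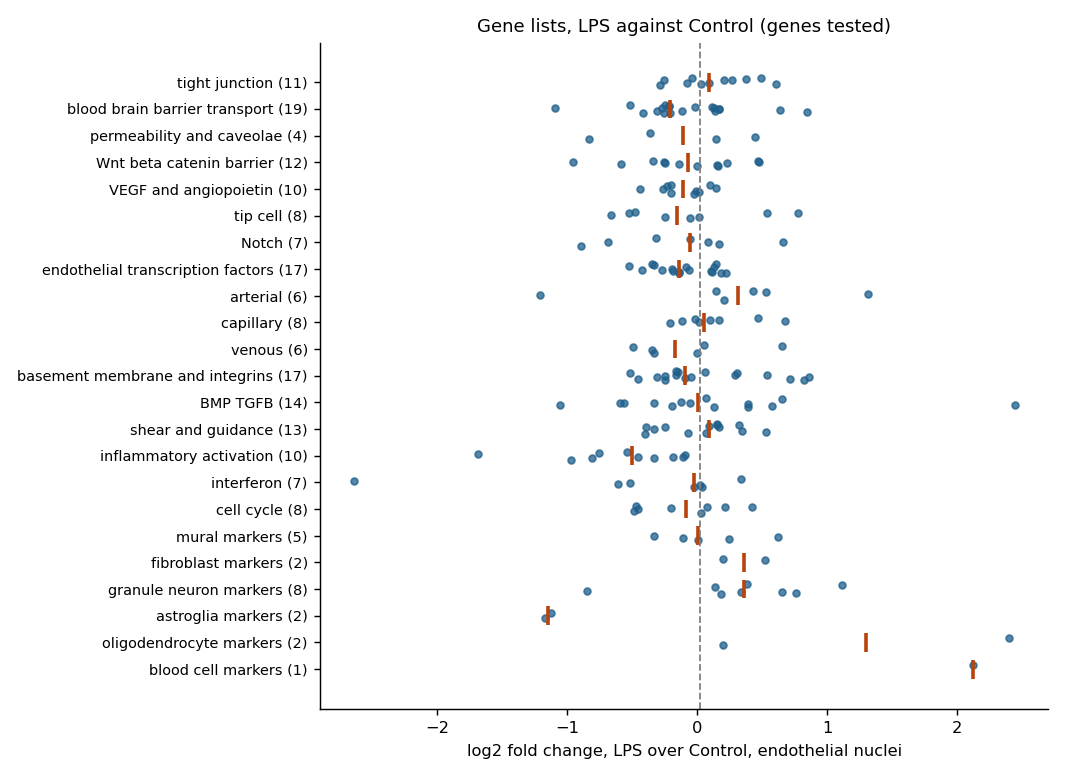
Log2 fold change between LPS and Control in endothelial nuclei (edgeR) for each tested gene (points) of each list, with the number of tested genes in parentheses, the list median (orange line) and the median of all tested genes, 0.02 (dashed). No point passed the threshold. The point far to the right in the BMP and TGF-beta list is BMPER, and the inflammatory list has its median at -0.50.

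Markers of other cell types were set beside these comparisons. The summed mural markers were 629, 186, 249 and 682 CPM, so that the Control female and LPS male libraries were high, and the summed fibroblast markers were 674, 396, 500.02 and 891 CPM. The summed astroglial markers were 595, 170, 275 and 154 CPM, and the groups overlapped. The median LPS minus Control difference of the 2 tested astroglial genes in log2(CPM + 1) was -1.46 in females and -1.36 in males, with no test. The oligodendrocyte gene MBP stood at 80.6, 45.1, 32.5 and 704 CPM, with 59 of 64 LPS male UMIs in 1 nucleus, and fetal globin HBG2 at 6.71, 191, 642 and 33.0 CPM, with 161 of 217 LPS female UMIs in 1 nucleus. Without the nuclei holding at least 3 mural or 3 microglial markers, 0 genes were called, and GPC5 had a log2 fold change of -2.38.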

How the data were processed

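Nuclei from frozen fetal cerebellum were captured with a 10x Genomics 3' kit, 1 library per fetus. Per the paper's methods, reads were mapped with introns included to the Mmul_8.0.1 genome by Cell Ranger, whose version is given as 4 in the submitters' processing notes and differs in the study's methods. The authors deposited raw UMI counts per gene and barcode, unnormalised and for all barcodes, so the filter of 500 genes was applied here, and 887 genes given by ID alone were named from a gene ID table. Members, gene lists and tests were chosen with earlier results of these data known. Each group held 2 fetuses, the unit of replication, so the main fits left 2 residual degrees of freedom per gene. Fits with a sex term or with a library left out had fewer. The edgeR and DESeq2 p-values also rest on dispersion estimates shared across genes, and not on these degrees of freedom alone.

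Counts were summed over endothelial nuclei and over all other barcodes of each library. edgeR 4.0.16 (filterByExpr on endothelial sums, TMM, quasi-likelihood F test, Benjamini-Hochberg over all tested genes) compared LPS with Control, and an interaction with class, with library as a block, compared the change with that in other barcodes. DESeq2 1.42.0 was an alternative. Endothelial nuclei against other barcodes got no test. Both fits were first run on simulated counts with known changes, which does not test their calibration on these nuclei. Doublets (Scrublet in scanpy 1.11.5, per library) were kept. In both male libraries its automatic limit called under 0.5%, so they took the median of the limits found in the female ones. Library totals were 34282015 to 61665690 UMIs. Named genes were the rule markers and 12 other endothelial genes, the 20 with the largest ratio, up to 5 tested genes with the highest mean CPM per list, and 8 per direction with the smallest p among non-overlapping genes. Some genes are not reported here. Other genes were picked for their role or after their values were seen.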

Additional observations from a re-analysis of the deposited data

Results flagged for a closer look

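Results were taken up here when LPS and Control differed in opposite directions in the 2 sexes, as judged from the median over a list's tested genes of the difference in log2(CPM + 1) between LPS and Control, with 1 fetus per sex and group, so that these differences were not tested. Lists with at least 5 tested genes were considered. For 12 endothelial lists the median was above zero in females and below zero in males, but in females it was close to zero for Wnt/beta-catenin genes (0.000764), Notch genes (0.00118), endothelial transcription factors (0.0271) and venous genes (0.0321). Several genes, such as ANGPT2 and DLL4, are in more than 1 of the 12 lists, so these are not separate observations. The tight junction, inflammatory, interferon and cell cycle lists were below zero in both sexes. The male minus female difference was -0.826 for barrier transporters, -0.443 for Wnt/beta-catenin genes, -0.731 for VEGF and angiopoietin genes, -1.43 for tip cell genes, -0.581 for Notch genes, -0.449 for endothelial transcription factors, -0.900 for arterial genes, -0.785 for capillary genes, -0.661 for venous genes, -0.566 for basement membrane and integrin genes, -0.553 for BMP and TGF-beta genes and -0.873 for shear and guidance genes. The medians behind these were 0.436 in females and -0.995 in males for tip cell genes, the list with the largest such difference among the 12, and 0.235 and -0.591 for barrier transporters. The opposite held for mural markers, with -1.28 in females and 1.99 in males (difference 3.27), and for granule neuron markers, with -0.349 and 0.764 (difference 1.11). Lists of fewer tested genes also had opposite signs, with -0.76 in females and 1.02 in males for fibroblast markers (2 tested), -0.53 in females and 1.93 in males for oligodendrocyte markers (2 tested) and 6.38 in females and -2.49 in males for blood cell markers (1 tested). Over all tested genes the medians were -0.0621 in females and -0.0355 in males. The LPS male library, with 22 endothelial nuclei, enters each male value.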

How the results depend on the processing

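Each library came from a different fetus, so no fetus was measured in both groups. With 1 female and 1 male per group, a fit with a sex term was run as an alternative. Leaving out each library in turn gave 11 to 86 called genes for LPS against Control, 0 to 23 relative to the other barcodes and 2 to 4 list genes, where the lone library of a group is assumed to vary like the other group. List genes called in this way included MGP, DKK2, HBG2, BMPER, TNC, RBFOX3 and MBP. Without the filter on low counts 8 and 7 genes and 2 list genes were called, and with 2 or more markers 17 relative to the other barcodes. The sex term, DESeq2's size factors, DESeq2, 4 or more markers, 1000 or more genes, the 5% mitochondrial limit and leaving out doublets or mural and microglial nuclei left each count at 0 wherever they were run. With 2 or more markers, ADARB2 and GRIA3 turned to log2 fold changes of 1.04 and 0.80, and relative to the other barcodes GRIA3 and RHOBTB3 to 0.87 and 0.30, and the cause was not tested. The log2 ratio of the mean LPS share to the mean Control share was -0.62, and -1.35 to -0.14 over the alternatives that keep both groups together. Within sexes it was -0.06 in females (-0.16 to 0.29 over the rules for nuclei, above zero with 2 or more markers, without doublets, without mural or microglial nuclei and after thinning) and -1.42 in males (-1.64 to -1.01). Among the genes named for the smallest p, GPC5, GRIA3, TNS3, FGF12 and SYN2 passed the threshold under at least 1 alternative. The LPS male library held 22 endothelial nuclei, and genes under about 33.0 CPM there rest on at most 3 counts.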
